A study of Mus musculus with 60 samples.

Results

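H4K8ac, the acetylation of lysine 8 on histone H4, was compared between neurons of exercised and sedentary mice in the left hippocampus. Each condition was represented by 1 list of CUT&RUN peaks, regions where a nuclease tethered to the antibody released much DNA. The peak caller kept a set top fraction of the enriched regions by their signal, so the number of peaks in a list is not a count of all acetylated sites. There were 12168 exercised and 36425 sedentary peaks, together 48593 of the 155961 peaks in all H4K8ac lists of the series. The members were all peaks of these lists, with no selection on width or position.

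The nuclei came from male Emx1-NuTRAP mice. In these animals Emx1-Cre switches on a tag on the nuclear envelope and on ribosomes, mainly in excitatory neurons of the forebrain, and it also acts in the neural progenitors from which other cells can descend. Between postnatal days 21 and 41 the exercised mice (early-life exercise, ELE) could run on a wheel, and the sedentary mice lived in standard cages. Both groups carried the same alleles. Of the 60 samples of the series, 3 were labelled H4K8ac, exercised, left and separate, and 3 were labelled H4K8ac, sedentary, left and separate. Separate means that tagged nuclei were isolated by themselves from the left hippocampus, whereas in SIT (simultaneous isolation) nuclei and ribosomes came from the same tube. The peak lists used here give 1 merged list per group, with no value for a single library, no read count and no signal height. The depth behind each list is thus unknown, there is no spread between mice, and no test between the conditions could be run. The methods state that 3 exercised H4K8ac libraries of separate isolation and 1 of SIT were left out for poor peak quality. They name no sedentary library and do not give the side of the brain. The exercised list may thus rest on fewer than 3 libraries. Ranges in parentheses after a share are 95% Wilson intervals, which reflect only how many peaks or genes were counted. The bp given for a gene are the summed widths of the peaks assigned to it, a measure of coverage and not of signal.

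Acetylation of the H4 tail loosens the contact between histones and DNA and is read by bromodomain proteins, and H4K8ac lies at promoters, enhancers and the bodies of active genes. In hippocampal neurons, histone acetylation around genes such as Bdnf, which codes for a neurotrophin that strengthens synapses, is known to accompany learning and physical activity. H3K27me3, which was mapped in the same series, is laid down by polycomb proteins and marks silent genes.

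To show what a peak of each kind lies on, the RefSeq start windows (GRCm38.p6, 250 bases before to 50 after the start, written 5′ to 3′ in the direction of the gene) of 6 named genes follow. Capitals mark GC boxes (GGGCGG on either strand) and the cAMP response element (CRE, TGACGTCA). Of all 32851 RefSeq windows of this length, 35.7% hold a GC box and 1.79% a CRE. The window of Gabra2, a GABA receptor subunit, was wholly covered in both left lists. Those of Tpgs1, a part of the tubulin polyglutamylase complex, and Fat4, a giant cadherin, were wholly covered in the exercised list and not in the sedentary one. Those of Kptn, an actin-associated protein, Mras, a Ras-family GTPase, and the Bdnf window printed here were wholly covered in the sedentary list and not in the exercised one.
Gabra2, chr5:71095800-71096099, minus strand: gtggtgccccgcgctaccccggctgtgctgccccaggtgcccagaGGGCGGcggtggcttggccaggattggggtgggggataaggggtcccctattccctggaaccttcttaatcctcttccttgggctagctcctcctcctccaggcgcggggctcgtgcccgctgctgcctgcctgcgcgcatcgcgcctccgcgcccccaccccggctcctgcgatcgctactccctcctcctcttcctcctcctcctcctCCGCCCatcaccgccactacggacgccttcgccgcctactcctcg
Tpgs1, chr10:79669189-79669488, plus strand: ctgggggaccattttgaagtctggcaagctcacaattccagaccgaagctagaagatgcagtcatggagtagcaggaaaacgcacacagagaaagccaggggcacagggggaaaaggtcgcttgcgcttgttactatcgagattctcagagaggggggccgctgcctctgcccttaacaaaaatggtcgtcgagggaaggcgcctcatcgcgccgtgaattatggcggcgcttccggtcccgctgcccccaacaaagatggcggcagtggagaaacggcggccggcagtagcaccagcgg
Fat4, chr3:38886690-38886989, plus strand: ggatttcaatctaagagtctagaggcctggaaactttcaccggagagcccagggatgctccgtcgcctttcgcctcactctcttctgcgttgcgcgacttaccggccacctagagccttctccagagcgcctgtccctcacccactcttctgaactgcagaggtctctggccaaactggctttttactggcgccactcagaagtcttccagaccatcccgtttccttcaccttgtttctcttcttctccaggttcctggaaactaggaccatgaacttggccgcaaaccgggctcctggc
Kptn, chr7:16119626-16119925, plus strand: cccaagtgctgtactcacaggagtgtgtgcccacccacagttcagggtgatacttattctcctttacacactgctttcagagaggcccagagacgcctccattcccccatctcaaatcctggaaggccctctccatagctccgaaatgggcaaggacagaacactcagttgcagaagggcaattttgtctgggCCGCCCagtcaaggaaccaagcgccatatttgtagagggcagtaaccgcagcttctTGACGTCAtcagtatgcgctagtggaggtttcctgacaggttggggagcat
Mras, chr9:99436663-99436962, minus strand: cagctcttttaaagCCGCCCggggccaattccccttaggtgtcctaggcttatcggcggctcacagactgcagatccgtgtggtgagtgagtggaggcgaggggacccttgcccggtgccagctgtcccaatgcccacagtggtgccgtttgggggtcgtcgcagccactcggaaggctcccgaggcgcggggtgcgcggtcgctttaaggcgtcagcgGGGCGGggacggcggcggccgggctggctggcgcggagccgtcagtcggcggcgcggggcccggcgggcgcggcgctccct
Bdnf, chr2:109692777-109693076, plus strand: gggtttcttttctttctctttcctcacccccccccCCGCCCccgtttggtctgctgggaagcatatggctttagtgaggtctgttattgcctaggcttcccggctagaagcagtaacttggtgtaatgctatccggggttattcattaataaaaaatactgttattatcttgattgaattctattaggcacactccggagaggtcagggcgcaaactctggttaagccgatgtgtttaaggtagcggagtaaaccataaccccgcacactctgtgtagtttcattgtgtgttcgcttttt

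The lists did not hold peaks evenly along the genome, and this touches every comparison that follows. On each of chromosomes 1 to 14, the median width of sedentary peaks lay between 1382.5 and 1631 bp. On each of chromosomes 15 to 19 and X it lay between 1135 and 1212 bp, with no chromosome in between. The share of right sedentary peaks that met a left sedentary peak was 63.5 to 71.6% on chromosomes 1 to 14 and 45.5 to 48.8% on chromosomes 15 to 18. The exercised list showed no such step at chromosome 15, with medians of 1727.5 to 1843.5 bp on chromosomes 1 to 14 and 1675 to 1844 bp on 15 to 18. It was nearly empty on chromosome 19, with 43 peaks against 665 in the sedentary list, and on X, with 1 peak against 51. The right exercised list held 240 peaks on chromosome 19, and the exercised SIT list 656. The left H3K27me3 lists held 414 (exercised) and 294 (sedentary) peaks there. What makes the lists change at these chromosomes was not tested. Results are therefore given for all chromosomes and, for many of those that move, for chromosomes 1 to 14.

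**Figure D1:**
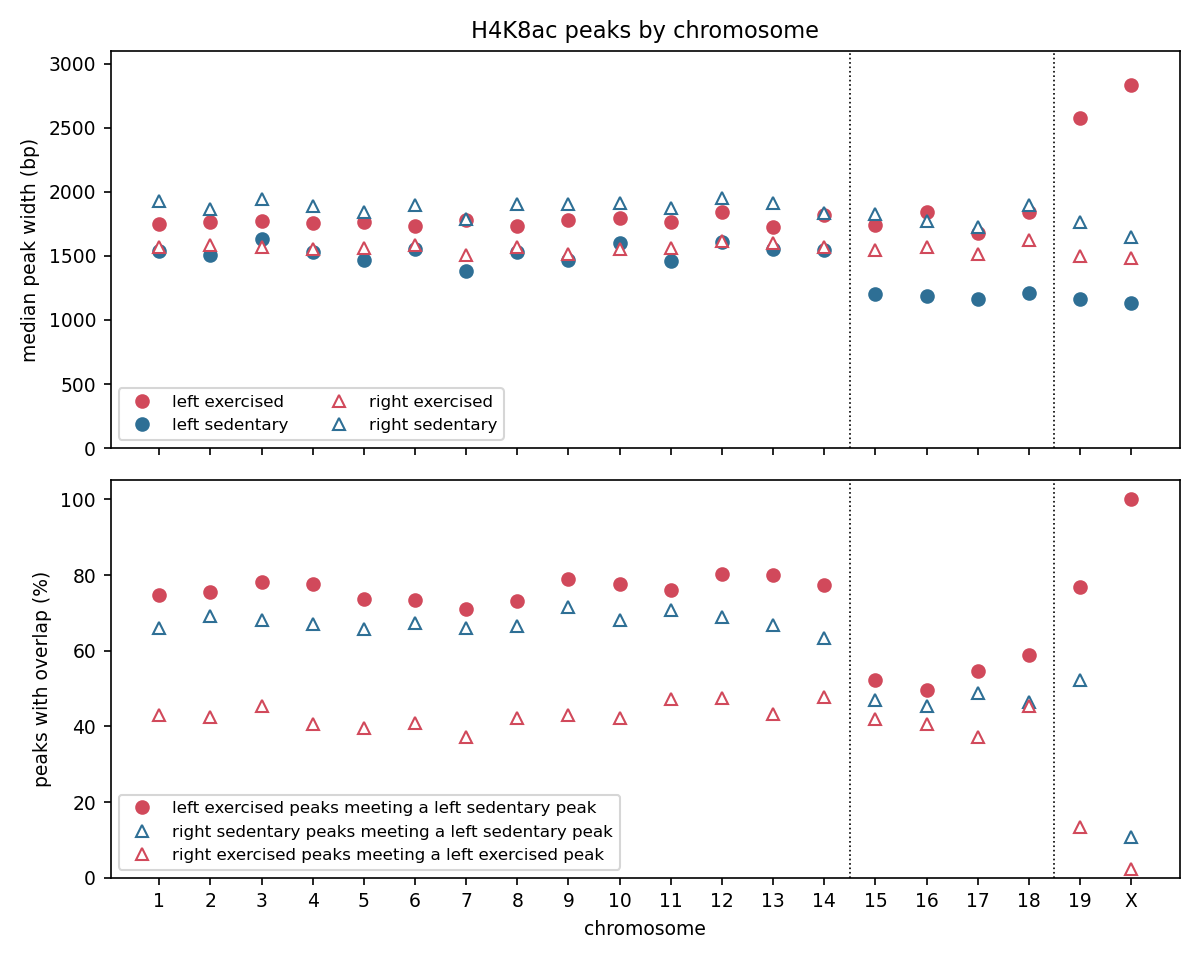
Median peak width in bp (top) and share of peaks with an overlap of at least 1 bp in % (bottom) for each chromosome, with filled circles for the left lists and open triangles for the right lists. Dotted lines set off chromosomes 15 to 18: left sedentary medians drop from at least 1382.5 to at most 1212 bp there, and left exercised peaks meeting a sedentary peak drop from at least 71.1% to at most 58.9%.

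The first question was how much acetylated territory the conditions shared. Exercised peaks covered 25.8 Mb and sedentary peaks 65.9 Mb, and 15.3 Mb lay in both, which gave a Jaccard index (shared bases over all bases covered) of 0.200. Of the exercised peaks, 8896 met a sedentary peak by at least 1 bp, or 73.1% (72.3 to 73.9%). Of the sedentary peaks, 9164 met an exercised peak, or 25.2% (24.7 to 25.6%). Most exercised peaks thus lay at sites of the larger sedentary set, while 27261 sedentary and 3272 exercised peaks stood alone. On chromosomes 1 to 14 the exercised share was 76.4% (75.6 to 77.2%), and on 15 to 18 it was 54.3% (52.0 to 56.6%). Chromosomes 15 to 18 held 14.9% of the exercised peaks but 829 of the 3272 exercised peaks that stood alone. The sedentary share was 25.6% and 25.1% in the same blocks. Where an overlap had to span 50% of both peaks, the shares were 43.0% of exercised and 14.4% of sedentary peaks. When the sedentary list was cut to its 12168 widest peaks, the shares were 48.7% and 46.2%.

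Wide peaks were shared far more often than narrow ones. A wider peak has more room to meet another, and no expected share was computed, so the part due to width alone was not tested. In the sedentary list, 14.3% of the narrowest peaks (up to 940 bp) and 10.6% of those of 1062 to 1171 bp met an exercised peak, against 68.6% (67.1 to 70.1%) of those of 3042 bp and more. In the exercised list the share was 72.5% in the decile of the narrowest peaks, 61.6% among those of 1529 to 1650 bp and 96.7% (95.6 to 97.6%) among those of 3299 bp and more. Both lists thus had their lowest sharing above the narrowest decile. On chromosomes 1 to 14 the exercised shares were 76.9% in decile 1 and 65.1% in decile 4, and the sedentary shares 12.1% in decile 1 and 10.1% in decile 3. Sedentary peaks without overlap had a median width of 1339 bp, against 2179.5 bp for those with one. Exercised peaks without overlap had a median of 1650 bp, against 1858 bp. The widest exercised peak spanned 41266 bp at Tcf4, a bHLH transcription factor gene on chromosome 18 whose human form is linked to Pitt-Hopkins syndrome, and it met 8 separate sedentary peaks. The widest sedentary peak spanned 25489 bp at A830018L16Rik and met 4 exercised peaks.

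**Figure D2:**
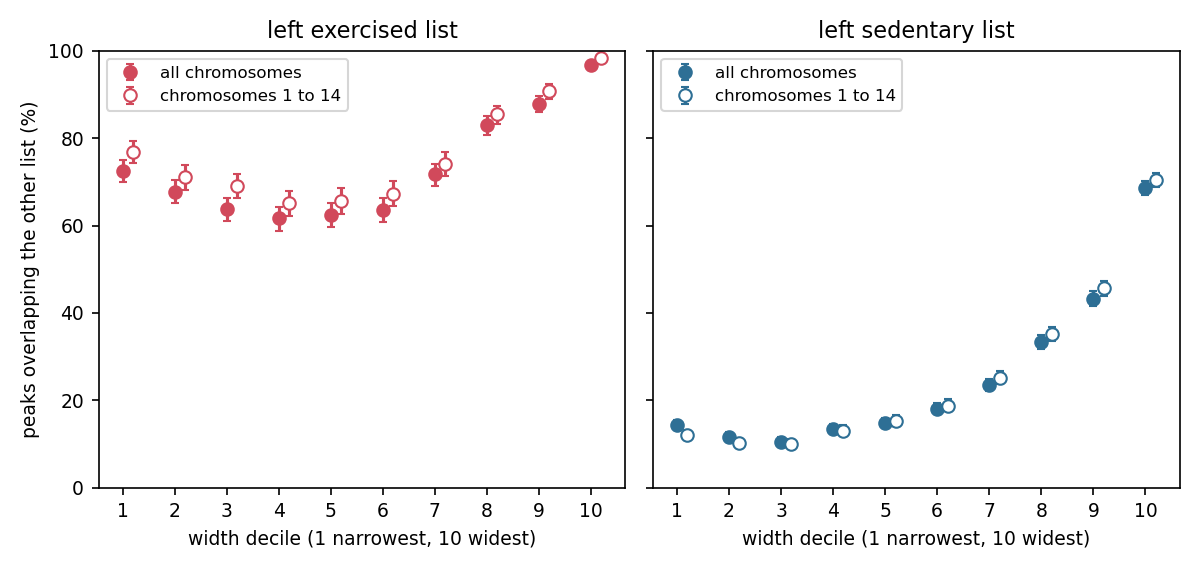
Share of peaks that overlap the other list (%) by width decile of each list, from the narrowest (1) to the widest (10), with 95% Wilson intervals. Filled symbols are all chromosomes and open symbols are chromosomes 1 to 14; decile 10 reaches 96.7% in the exercised list and 68.6% in the sedentary list.

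Widths of the same region could be set side by side where 1 exercised peak met 1 sedentary peak and no other. There were 7295 such pairs, with median widths of 1807 bp (exercised) and 2199 bp (sedentary). The sedentary peak was the wider in 59.2% (58.0 to 60.3%) of the pairs. This direction depended on the chromosome block. On chromosomes 1 to 14 the sedentary peak was wider in 63.8% (62.6 to 65.0%) of 6470 pairs, and on chromosomes 15 to 18 in 23.0% (20.2 to 26.0%) of 797 pairs, where the medians were 1893 bp (exercised) and 1348 bp (sedentary). Over all peaks the exercised median was 1769.5 bp and the sedentary median 1453 bp, the opposite order to the pairs.

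Peaks of both lists were placed on genes in nearly the same proportions. Promoters, within 3 kb of a start site, held 25.2% of exercised and 24.3% of sedentary peaks, a difference of 0.936 points whose sign turned at equal numbers of peaks (−0.0904 points). Introns held 37.8 and 39.0%, distal intergenic DNA 25.9 and 26.0%, exons 7.67 and 7.46% and 3′ UTRs 2.90 and 2.84%. For promoters and introns, shared and unshared peaks differed more than the conditions did. Among exercised peaks, promoters made up 26.6% (25.7 to 27.5%) of shared and 21.6% (20.2 to 23.1%) of unshared peaks, and introns 35.8 and 43.2%. Among sedentary peaks, promoters made up 26.7% (25.8 to 27.7%) of shared and 23.5% (23.0 to 24.0%) of unshared peaks, and introns 35.5 and 40.2%. Peaks that covered a start site were shared most often, at 81.0% (79.0 to 82.8%) of 1680 exercised and 34.7% (33.3 to 36.2%) of 4338 sedentary peaks. Peak width was not held equal in this comparison. In the 6 distance classes beyond the start, the shares ran from 69.7 to 74.2% of exercised and from 20.1 to 26.5% of sedentary peaks, with no steady fall with distance. The lowest sedentary share was in the class nearest the start, under 1 kb, and the lowest exercised share in the next, from 1 to 3 kb. The median distance to the nearest start site was 19950 bp in the exercised and 20382 bp in the sedentary list.

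The sequence under the peaks was compared in their central 500 bp, read from GRCm38.p6. Median GC content was 45.2% in exercised and 44.0% in sedentary peaks. It was 45.6% in shared peaks of either list, 44.2% in unshared exercised and 43.4% in unshared sedentary peaks. The ratio of observed to chance CpG was 0.227 and 0.216, against 0.389 in 500 bp around all 32851 RefSeq start sites, where median GC content was 53.6%. The GC box (GGGCGG), the site of Sp1-type factors, lay in 12.5% of shared and 9.81% of unshared exercised peaks, and in 12.9 and 9.75% of the sedentary ones, against 42.6% of the windows at start sites. The AP-1 site (TGANTCA), bound by Fos and Jun, lay in 15.3% (14.7 to 15.9%) of exercised and 16.2% (15.9 to 16.6%) of sedentary peaks, against 11.5% at start sites. The E-box CATCTG, bound by neurogenic factors such as Neurod1, lay in 36.1 and 35.7%, against 26.6%. The MEF2 site lay in 1.58 and 1.77%, against 0.740%, the CTCF site in 0.666 and 0.873%, against 0.691%, and the NRF1 site in 0.197 and 0.192%, against 1.70%. The CRE lay in 0.485% (0.376 to 0.625%) of exercised and 0.516% (0.448 to 0.595%) of sedentary peaks, against 2.08%. All motifs were read on both strands. The intervals of the exercised and sedentary lists overlapped for each of these motifs except the GC box, at 11.8% (11.2 to 12.3%) and 10.5% (10.2 to 10.9%). A match is a string of letters, not a bound site. Start sites are richer in GC than the peaks, and no background of equal GC content or position was used. The contrasts with start sites therefore do not show that a motif is enriched or depleted.

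Start windows themselves were seldom under a peak. The exercised list touched 5.57% and the sedentary list 14.7% of the 32851 RefSeq windows. Among 11104 windows rich in CpG (GC of at least 55% and a CpG ratio of at least 0.6), the exercised list touched 8.01% (7.52 to 8.53%) and the sedentary list 24.4% (23.6 to 25.2%). Among the other 21747 windows the values were 4.32% (4.06 to 4.60%) and 9.69% (9.30 to 10.1%). The sedentary list alone touched 2061 CpG-rich windows and the exercised list alone 242, with 647 under both.

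The peaks were assigned to 10600 genes by symbol. Of these, 4722 had a peak in both lists, 5499 (51.9%) in the sedentary list only and 379 (3.58%) in the exercised list only. On chromosomes 1 to 14, 4507 of 8805 genes (51.2%) were in the sedentary list only and 267 (3.03%) in the exercised list only. On chromosomes 15 to 18, 106 of 1475 genes were in the exercised list only, or 7.19% (5.98 to 8.62%). At equal numbers of peaks, with the sedentary list cut to its widest, 1607 genes were in the exercised list only and 1613 in the sedentary list only. Equal numbers of peaks bring the gene totals of the lists close, and these counts can differ only as much as the totals. Their near balance thus follows largely from the cut and says little about the conditions. Of the 371 exercised-only genes with a gene body in GENCODE M21, 84 (22.6%) nevertheless held a sedentary peak within the gene body or 3 kb around it that had been assigned to another gene. Of 5379 such sedentary-only genes, 310 (5.76%) held an exercised peak there. Among genes in both lists, the exercised list covered a median of 0.540 times as many bases as the sedentary list, and it covered more bases in 873 genes. On chromosomes 15 to 18 this ratio was 0.877.

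Among genes in both lists, the 10 with the most acetylated bases included Celf2, Tcf4, Anks1b, Cdh11 and Magi2. Celf2, a splicing regulator, held 40 exercised peaks over 81507 bp and 125 sedentary peaks over 252189 bp. Anks1b, a postsynaptic protein that binds amyloid precursor protein products, held 107910 bp (exercised) and 193013 bp (sedentary), and Cdh11, a cadherin of neuronal adhesion, 96071 and 186315 bp. Magi2, a synaptic scaffold, held 43798 and 151329 bp. The remaining members, St6galnac3, 5730522E02Rik, Msra, Snd1 and Prkd1, also had more bases in the sedentary list. Tcf4 alone among these 10 went the other way, with 184241 bp in the exercised and 127096 bp in the sedentary list, and it lies on chromosome 18, where the sedentary peaks were narrow.

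The exercised-only genes with the most bases were Med25 (5424 bp), Afap1l1 (4698 bp), Gnal (4608 bp), 4930562C15Rik (4554 bp), Mylk (4517 bp), Fibcd1 (4096 bp), Usp7 (4014 bp), Tpgs1 (3943 bp), Plpp7 (3846 bp) and Ppp1r13b (3512 bp). Of the 10, Afap1l1, Gnal, 4930562C15Rik, Mylk and Usp7 lie on chromosomes 16 and 18. Med25 is a subunit of the Mediator complex, and 1 of its 2 exercised peaks, chr7:44892884-44895651, did meet a sedentary peak that was assigned to another gene. Gnal codes for the G protein that couples receptors to cAMP in olfactory and striatal cells, and its peaks were intronic. Mylk is myosin light chain kinase, with 3 peaks of 1455 to 1532 bp. Sedentary peaks not assigned to Mylk covered 1837 bp of its gene body or the 3 kb around it. In the same way they covered 2252 bp at Afap1l1 and 926 bp at Ppp1r13b. Fibcd1 is a marker of CA1 pyramidal cells, with peaks of 2419 and 1677 bp in intergenic DNA at −12259 and −15685 bp from its start, and a sedentary peak elsewhere in its body. Usp7 is a deubiquitinase, Plpp7 a phosphatase-like protein of the nuclear envelope and Ppp1r13b a p53-binding protein. Tpgs1 held 2 adjoining peaks of 2505 and 1438 bp. The wider one covered the start window printed above, and the other lay just downstream of that window. That start window was also wholly covered in both right and both SIT lists, whereas the window of Fat4 was covered in none of the other H4K8ac lists.

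The sedentary-only genes with the most bases held many peaks each. Cntn4, a contactin of axonal contacts, held 23 sedentary peaks over 33173 bp and none in the exercised list. Trpm3, a cation channel on chromosome 19, held 18 peaks over 24957 bp, Galnt18 16 over 23901 bp and Lingo2, a neuronal leucine-rich repeat protein, 14 over 23612 bp. Celf1, an RNA-binding protein, held 10 peaks over 19240 bp, the kinase gene Jak1 13 over 17341 bp, the growth factor gene Nrg1 10 over 16658 bp and Adam22, a synaptic receptor for Lgi1, 10 over 15602 bp. Sqor and Lrrc40 completed these 10. Exercised peaks not assigned to these genes covered 3260 bp at Lingo2 and 2210 bp at Trpm3, in the gene body or the 3 kb around it. Of the Jak1 peaks, 1 (chr4:101304742-101306127) shared 1203 bp with an exercised peak that was assigned to another gene. In the right and SIT arms, 9 of the 10 had a peak in both conditions, and Lrrc40 had one in the sedentary right list and in both SIT lists.

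The widest peaks that stood alone lay at different genes in each condition. In the exercised list they were at Mir125b-2, the host locus of a neuronal microRNA (chr16:77644558-77650568, 6011 bp, over the start site), Celf4 (5876 bp), Carmn (5451 bp), Dlgap1 (4801 bp) and 1700121N20Rik (4643 bp). The first 4 lie on chromosomes 16 to 18. On chromosomes 1 to 14 the widest after 1700121N20Rik were at Tenm2 (4284 bp), a teneurin of synaptic adhesion, Pds5b (4269 bp), a cohesin regulator, Fat4 (3715 bp) and Rapgef2 (3702 bp). In the sedentary list they were at Dclk1, a microtubule-binding kinase of migrating neurons (chr3:55462560-55471647, 9088 bp), Calhm5 (7857 bp), Mras (7728 bp), Ssbp2 (7678 bp) and 4930425L21Rik (7129 bp).

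Marker genes were used to check the labelled cell type. All 14 excitatory neuron markers had a peak, 11 in both lists and the others, among them Slc17a7 and Dlg4, in the sedentary list only. Neurod1, Neurod2 and Neurod6, transcription factors of excitatory neurons, held 7677, 7360 and 8301 bp in the exercised and 7685, 8680 and 8545 bp in the sedentary list. Emx1, the gene whose locus directs the Cre, held 1529 and 5951 bp. For the other cell types the markers without a peak were counted, and of 21728 protein-coding genes in GENCODE M21 58.8% were in neither list. Of 14 interneuron markers, 9 were in neither list, among them Gad2, Slc32a1 and Pvalb. Dlx2 was in both, Gad1, Vip and Npy in the sedentary list only, and Sst in the exercised list only, with 1 intergenic peak of 902 bp. Of 10 oligodendrocyte markers, 8 were in neither list and Mbp and Cspg4 were in both. Of 9 microglia markers 6 were in neither, and of 8 endothelial markers 4. Of 10 astrocyte markers 2 were in neither, 3 in both lists (Aqp4, Slc1a2 and Gja1) and 5 in the sedentary list only, Gfap and Aldh1l1 among them. In bulk nuclei, fewer cells of a type and less acetylation per cell cannot be told apart. Of 8 dentate granule cell markers, 4 were in both lists, 2 in the sedentary list only and 2 in neither. Of 10 CA1 and CA3 markers, 6 were in both, 3 in the sedentary list only and Fibcd1 in the exercised list only.

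**Figure D3:**
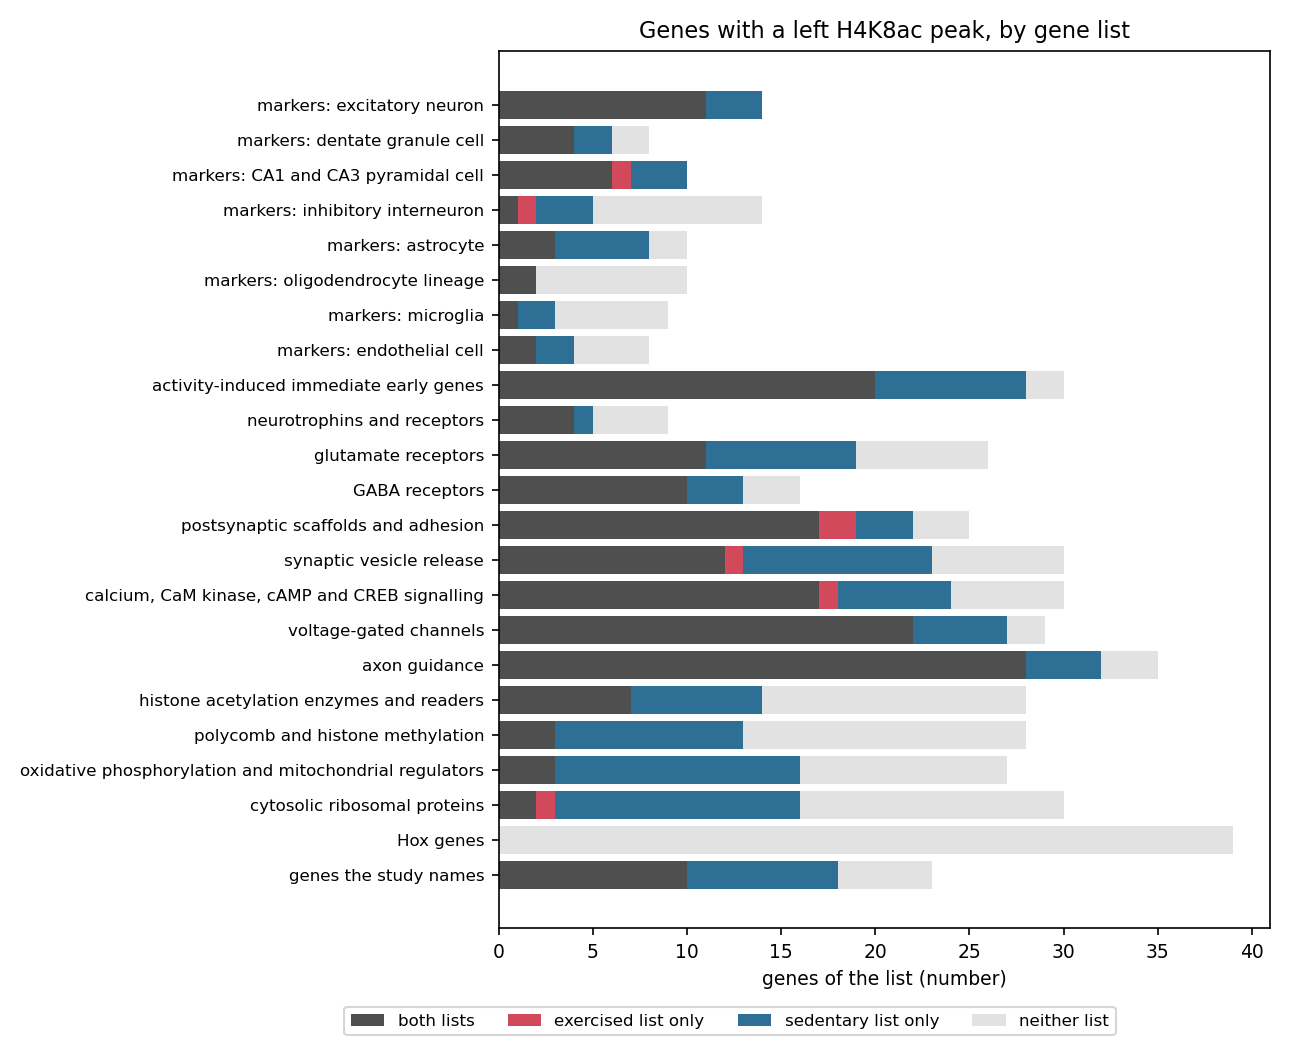
Number of genes of each list with a peak in both left H4K8ac lists, in the exercised list only, in the sedentary list only or in neither. Exercised-only genes (red) are at most 2 in any list, and no Hox gene has a peak in either list.

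Gene lists were read against the background of 3.58% exercised-only and 51.9% sedentary-only among all listed genes. Of 30 activity-induced immediate early genes, 28 were listed, 20 in both lists and 8 in the sedentary list only. The 8 were Egr2, Npas4, Ier5, Dusp1, Dusp5, Nptx2, Sik1 and Rheb, of which 4 (Npas4, Dusp1, Dusp5 and Sik1) lie on chromosomes 17 and 19. Fos, the classic marker of neuronal firing, held 4403 bp in the exercised and 1691 bp in the sedentary list, in peaks more than 10 kb from its start. Arc, which remodels glutamate synapses and lies on chromosome 15, held 3551 and 1157 bp, in peaks that did not overlap each other. Junb, Ier2 and Per1 were the other 3 of the 20 with more bases in the exercised list. Nr4a1, an orphan receptor induced by activity, held 1640 and 4891 bp, Nr4a3 16606 and 34727 bp, and Egr3 7160 and 24670 bp. Homer1 shared a peak over its start (1790 bp exercised, 1472 bp sedentary), and its other 8 peaks were sedentary.

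Bdnf held 9 exercised peaks over 16464 bp and 15 sedentary peaks over 39740 bp. The gene has several alternative first exons, and RefSeq gives it 7 start windows. The exercised list touched 1 of them, over 288 of its 300 bases. The sedentary list covered 4 of them wholly, that one included, and another over 5 bases. The window printed above was wholly covered in the sedentary right and the exercised SIT lists too. Of the other neurotrophin genes and receptors, Ntrk2, the Bdnf receptor, held 11901 bp (exercised) and 22559 bp (sedentary), Ntrk3 9293 and 34279 bp and Sort1 8703 and 15546 bp. Ntf3 was in the sedentary list only, with 9349 bp.

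**Figure D4:**
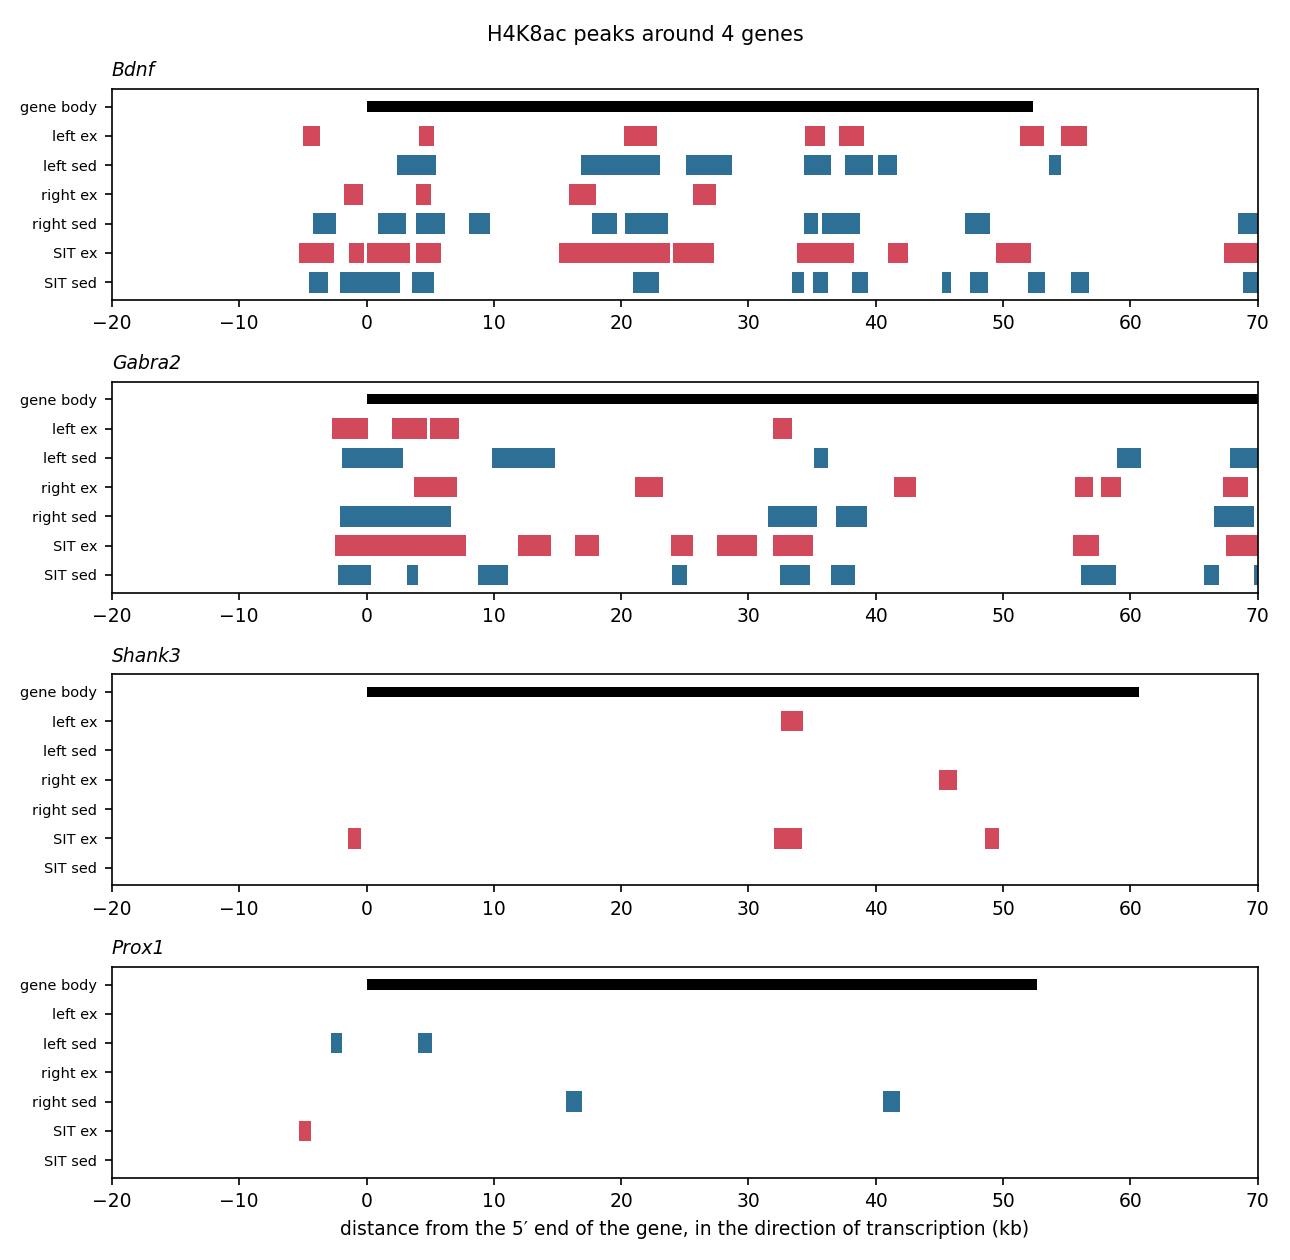
H4K8ac peaks of the 6 lists around Bdnf, Gabra2, Shank3 and Prox1, by distance in kb from the 5′ end of the gene in the direction of transcription, exercised (ex) in red and sedentary (sed) in blue, with the gene body in black. Bdnf and Gabra2 carry peaks in all 6 lists, the body of Shank3 in the 3 exercised lists only, and the Prox1 region in neither exercised separate list.

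Of 26 glutamate receptor genes, 11 were in both lists, 8 in the sedentary list only and none in the exercised list only, so 42.1% of the listed ones were sedentary-only, against 51.9% of all listed genes. Gria1 and Gria2, AMPA receptor subunits, held 16759 and 43821 bp in the exercised and 65690 and 94311 bp in the sedentary list. Grik2, a kainate receptor subunit, held 38447 and 129838 bp. The metabotropic receptor genes Grm2, Grm4, Grm5 and Grm8 were in the sedentary list only. Of 16 GABA receptor genes, 10 were in both lists and 3 in the sedentary list only, or 23.1% of those listed. Gabra2 held 10 exercised peaks over 20630 bp and 25 sedentary peaks over 61809 bp, and Gabrb1 32025 and 41381 bp. In both families, every gene in both lists had more bases in the sedentary list.

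Among the 25 postsynaptic scaffold and adhesion genes, Shank3 on chromosome 15 was in the exercised list only. Shank3, a scaffold of excitatory synapses, held 1 exercised peak of 1766 bp over an internal start site (chr15:89532164-89533929). It had 1 peak in the right exercised list and 3 in the exercised SIT list, and none in the 3 sedentary lists. The right peak lay further downstream in the gene and did not meet the left one, while 1 of the SIT peaks did. Of the other members, 17 were in both lists, such as Dlg2 with 41794 and 140923 bp and Nrxn3 with 11018 and 70527 bp, and 3 (Dlg4, Shank1 and Nrxn2) in the sedentary list only. Of 30 genes of vesicle release, 12 were in both lists and 10 in the sedentary list only, among them Syn2, Sv2a, Slc17a7 and Nsf. Vamp2, the vesicle SNARE, was in the exercised list only, with 1 promoter peak of 1313 bp on chromosome 11. Both right and both SIT lists also gave Vamp2 a peak.

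Of 30 genes of calcium, CaM kinase, cAMP and CREB signalling, 17 were in both lists, 6 in the sedentary list only and 1, Prkar1b, in the exercised list only, with 1 peak of 1563 bp over a start site. Camk2g held 5762 and 2037 bp, and Pde4d, a cAMP phosphodiesterase, 15425 and 65414 bp. Among voltage-gated channels 22 of 29 were in both lists and 5 in the sedentary list only, and among axon guidance genes 28 of 35 and 4. The potassium channel gene Kcna4 held 35401 and 103300 bp, and the semaphorin receptor gene Nrp2 43197 and 70747 bp. Of the genes in the mitochondrial and ribosomal lists, few were in both left lists. Of 27 genes of oxidative phosphorylation and mitochondrial regulators, 3 were in both lists, 13 in the sedentary list only and 11 in neither. Of 30 cytosolic ribosomal protein genes, 2 were in both lists, 13 in the sedentary list only and 14 in neither. In each list 81.2% of the 16 listed genes were sedentary-only, against 51.9% of all listed genes, mostly through 1 promoter peak. Rpl13a was the 1 ribosomal gene in the exercised list only, with a peak of 1073 bp at −288 bp from its start. Of the 30 ribosomal genes, 14 had a sedentary promoter peak and 2 an exercised one.

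Of 28 histone acetylation enzymes and readers, 7 were in both lists and 7 in the sedentary list only, which was 7 of the 14 listed, and Hdac9, a class II deacetylase, had the most bases with 30115 and 81229 bp. Of 28 polycomb and histone methylation genes, 3 were in both lists (Ezh1, Cbx8 and Kdm7a) and 10 in the sedentary list only, among them Ezh2 and Kmt2c. Of 39 Hox genes, which are silent in the forebrain, none had a peak in either list. Of 23 genes that the study names, 10 were in both lists and 8 in the sedentary list only. The 8 were Prox1, the transcription factor of dentate granule cells, Kptn, Col3a1, Asphd1, Fdxr, Stxbp5l, Artn and Dusp5. The study chose these genes from its own results, those of SIT libraries of this series among them, so their direction is not independent evidence. Prox1 held 3 sedentary peaks of 903 to 1168 bp, and Kptn 1 of 4747 bp over the start printed above, which holds a CRE. The Kptn window was also wholly covered in the sedentary right and the exercised SIT list, and not at all in the exercised right and the sedentary SIT list.

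At equal numbers of peaks, 3494 genes over the genome were in both lists, 1607 in the exercised list only and 1613 in the sedentary list only. Immediate early genes were in both lists in 14 cases, in the exercised list only in 6 and in the sedentary list only in 3, and the signalling genes in 10, 8 and 1. Glutamate receptors were in 11, 0 and 3, voltage-gated channels in 21, 1 and 4, and vesicle release genes in 9, 4 and 6. Axon guidance genes were in 21, 7 and 2, GABA receptors in 10, 0 and 1, postsynaptic genes in 15, 4 and 0, neurotrophins and their receptors in 4, 0 and 1, and the genes the study names in 7, 3 and 2. Ribosomal genes were in 0, 3 and 0, while the genes of oxidative phosphorylation and mitochondrial regulators were in 3, 0 and 2. The acetylation genes were in 4, 3 and 5, and the polycomb and methylation genes in 1, 2 and 4. Markers of excitatory neurons were in 8, 3 and 2, of dentate granule cells in 3, 1 and 1, and of CA1 and CA3 cells in 3, 4 and 1. Markers of interneurons were in 1, 1 and 1, of astrocytes in 1, 2 and 0, of oligodendrocytes in 2, 0 and 0, of microglia in 1, 0 and 0, and of endothelial cells in 1, 1 and 2. In this setting the exercised-only genes outnumbered the sedentary-only ones, the reverse of the full lists, for the immediate early, signalling, axon guidance, postsynaptic and ribosomal genes, the genes the study names, and the markers of excitatory neurons, CA1 and CA3 cells and astrocytes. The cut kept sedentary peaks of at least 1836 bp and fell harder on chromosomes 15 to 18. The upper quartile of sedentary width was 1470 bp there and 2236 bp on chromosomes 1 to 14. These counts were not taken for chromosomes 1 to 14 alone.

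The right and SIT arms, which have libraries of their own, were compared with the left peaks one by one. Of unshared exercised peaks, 19.8% (18.5 to 21.2%) met a right exercised peak and 40.01% (38.3 to 41.7%) a right sedentary peak. Of unshared sedentary peaks, 17.1% (16.7 to 17.6%) met a right exercised peak and 34.98% (34.4 to 35.5%) a right sedentary peak. Both classes thus met the sedentary right list more often than the exercised one, and the right sedentary list is the longer, with 25159 against 13715 peaks. In SIT, where the exercised list is the longer (38136 against 30358 peaks), 55.9% and 37.5% of unshared exercised peaks met an exercised and a sedentary peak, and 47.3% and 31.6% of unshared sedentary peaks. Shared peaks were found far more often, in 80.6% of exercised and 79.7% of sedentary cases in the right sedentary list. They were also wider than unshared ones, and width was not held equal here. Of the unshared exercised peaks 25.2% (23.7 to 26.7%), and of the unshared sedentary peaks 36.4% (35.8 to 36.9%), met no peak in any of the 4 other H4K8ac lists, against 3.79 and 4.22% of shared ones. On chromosomes 15 to 18, 48.9% (45.5 to 52.3%) of unshared exercised peaks met a right sedentary peak, and on chromosomes 1 to 14, 36.9% (34.99 to 38.8%).

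**Figure D5:**
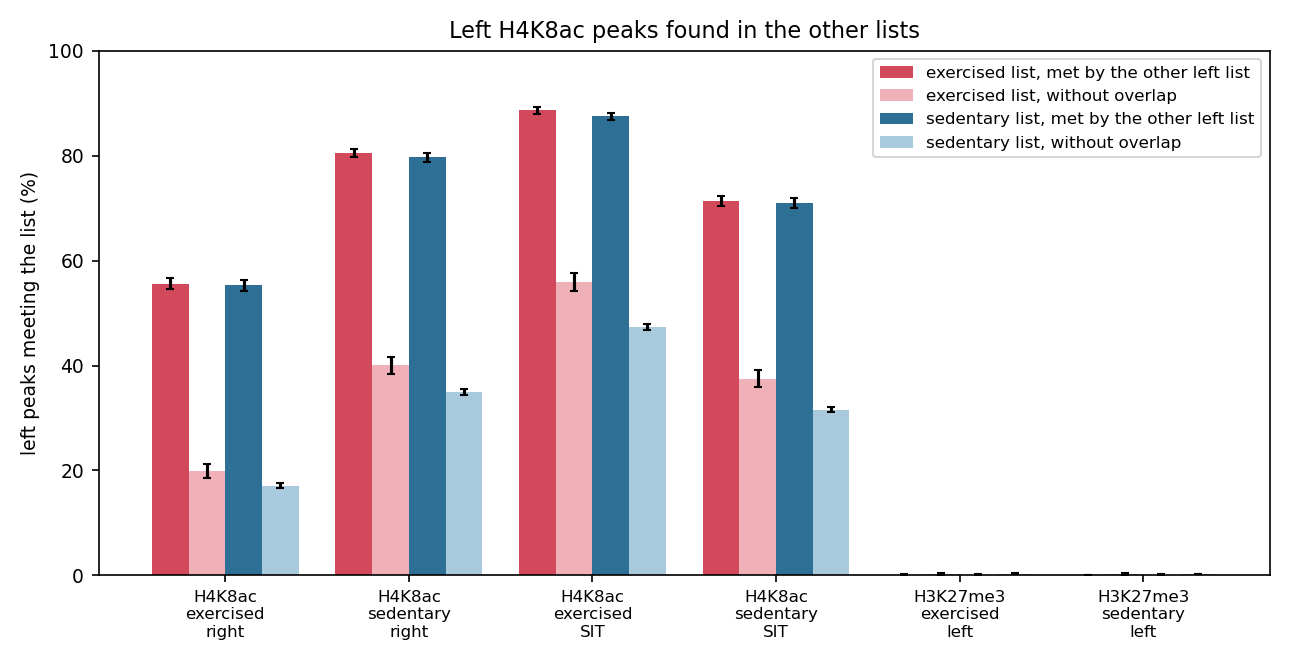
Share of left peaks that meet a peak of each other list (%), for shared and unshared peaks of the exercised (red) and sedentary (blue) lists, with 95% Wilson intervals. Unshared peaks of either condition meet the right sedentary and the exercised SIT lists most, and at most 0.305% of any class meets an H3K27me3 peak.

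By gene, 43 of the 379 exercised-only genes (11.3%) were exercised-only in the right arm, and 122 (32.2%) were sedentary-only there. In SIT 115 (30.3%) were exercised-only and 37 (9.76%) sedentary-only. Of the sedentary-only genes, 7.29% were exercised-only and 28.8% sedentary-only in the right arm, and 25.8% and 8.42% in SIT. Over all 10600 genes the shares were 5.42% and 24.3% in the right arm and 18.5% and 5.37% in SIT. For genes of both kinds, the more frequent status in each arm was that of its longer list. Only 17 of the 379 genes (4.5%, 2.8 to 7.1%) were exercised-only in all 3 arms, among them Shank3, Rpl13a and Pebp1, an inhibitor of Raf kinase. Another 13 were exercised-only on the left and sedentary-only in both other arms. Of the 5499 sedentary-only genes, 121 (2.2%) were sedentary-only in all 3 arms and 143 exercised-only in both others. The shares of all 10600 genes with these statuses in both other arms were not computed, so these counts lack a background.

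H4K8ac and H3K27me3 hardly met. Of the shared exercised peaks, 9 of 8896 met an exercised left H3K27me3 peak (0.101%), and of the unshared ones 8 of 3272 (0.244%). Of the unshared sedentary peaks, 70 of 27261 met a sedentary left H3K27me3 peak (0.257%). By gene, 54 of the 379 exercised-only genes (14.2%), 943 of the 5499 sedentary-only genes (17.1%) and 688 of the 4722 genes in both H4K8ac lists (14.6%) had a peak in both left H3K27me3 lists, against 15.9% of all 10600 genes. Prox1 was one, with 28 exercised and 23 sedentary H3K27me3 peaks over 97088 and 92750 bp.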

How the data were processed

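CUT&RUN reads of H4K8ac and H3K27me3 were processed by the authors, who used FastQC 0.11.9, Bowtie2 2.4.1, SEACR (stringent setting, with a numeric threshold that keeps a top fraction of regions by signal) and ChIPseeker 1.8.6 against mm10 per the labels and methods. How libraries were merged into a list is not stated. The deposited lists give each peak's position, width and distance to a start site in bp, with no counts or signal. Between 0.203 and 0.361% of the peaks of the 8 lists used had no symbol, and peaks of a list did not overlap each other.

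Overlap meant at least 1 bp. A peak is called shared if it met a peak of the other left list. Shares have 95% Wilson intervals, with no test, since each list is 1 pooled value. Genes were matched by the authors' symbol, and gene bodies came from GENCODE M21. Start windows came from RefSeq (GRCm38.p6), and 61 of 80 named genes had one outside chromosome 18. The windows equalled the genome in 87 of 87 cases. The overlap code was tested on simulated data and gave the known answer in 20 of 20 sets. Python 3.11.15, numpy 2.4.6, pandas 2.3.3, scipy 1.17.1 and matplotlib 3.10.9 were used.

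The comparison, gene lists and alternatives were chosen with earlier results of these data known. Named genes were list members, genes of the study, the 10 genes with the most bases per class, and the 5 widest peaks per class. Widest peaks and genes on chromosomes 1 to 14, the genes listed in all 3 arms and the start windows were added after seeing the data. Some list members are not reported here by name.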

Additional observations from a re-analysis of the deposited data

Results flagged for a closer look

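The exercised list held 0.334 times as many peaks as the sedentary list on the left and 0.545 times as many on the right, but 1.26 times as many in SIT. Covered length stood at 0.391 times on the left, 0.437 times on the right and 1.73 times in SIT. The median exercised peak was 316.5 bp wider than the sedentary one on the left, whereas the difference, exercised minus sedentary, was −314 bp on the right and 554 bp in SIT. Each of these contrasts between arms rests on 1 pooled list per condition and was not tested.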

How the results depend on the processing

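Of 55 alternatives over 11 results, 37 moved a value by less than its counting interval (for a value other than a share, by less than 1.5 times), 16 moved it further and 2 turned its sign. Many changes came from cutting the sedentary list to its 12168 widest peaks. The number ratio was then 1.0 by construction. The width difference was −745.5 bp, a sign that the construction also fixed, since the narrowest sedentary peak kept (1836 bp) was wider than the exercised median. The length ratio was 0.72, the promoter share difference −0.0904 points and the distance difference −1266 bp, against −432 bp. In that setting 48.7% of exercised and 46.2% of sedentary peaks overlapped, and 1607 and 1613 genes were in the exercised and sedentary list only. The near balance of these gene counts also follows largely from the equal numbers of peaks. With the widest 50% of each list the overlaps were 66.6 and 22.8%, the distance difference −1225 bp and the genes in both lists 2743. A reciprocal overlap of 50% gave 43.0 and 14.4%, and promoter peaks alone left 2139 genes in both lists. Chromosomes 1 to 14, a setting chosen after seeing the data as was the assignment by gene body, gave overlaps of 76.4 and 25.6%. No cause was tested beyond what the settings themselves fix. No paired analysis was possible because each condition is 1 pooled list with no value per library, and no library could be left out for the same reason. Depth is unknown, so a peak listed in 1 condition only may lie just under the calling threshold in the other.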
